A study of Mus musculus with 121 samples.

Results

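The comparison described here set 20 h against 8 h of the HL protocol in Per2::Luc mouse fibroblasts, with 4 libraries at 20 h and 3 libraries at 8 h by the titles of the deposited samples, 7 of the 62 libraries of the series. The cells were 1 immortalized line of ear fibroblasts at passage 25 that carries a PER2::LUC knock-in (named PER2::LUCsv in the study's methods), in which luciferase is fused to the clock protein PER2, so all groups share this allele and no second line was sequenced. HL cultures received 3 cycles of 24 h, each with 12 h of medium high in glucose and insulin followed by 12 h of low medium. LH cultures received the opposite order and HH cultures received high medium at every change. After 12 h of free running without further changes, RNA was collected 6 times, 4 h apart, so that the third collection fell 8 h and the sixth 20 h after the first. Expression was measured by 3′DGE, which counts transcripts from reads near their 3′ ends, and the reads of both sequencing runs of a library were added.

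The members were found by the treatment, clock hour, collection and replicate fields of the titles. The clock hour field is 4 for the 8 h libraries and 16 for the 20 h libraries, and hours in this text follow the collection. The read summary supplied with the study names these libraries otherwise. By library number it lists replicates 1 and 2 of 8 h as LH at 0 h and replicate 4 as LH at 4 h. It lists replicates 1, 2 and 3 of 20 h as LH at 12 h and replicate 4 as LH at 16 h, the last of them marked as removed. So 7 of 7 libraries carry another name there and 0 are named HL, and every value below is given by titles unless the read summary is mentioned. Both sources place the 20 h libraries after the 8 h libraries, but they disagree on the protocol and on the hour.

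Totals were 3391603 to 6274223 counts a library, with 8626 to 9271 genes above 5 CPM. Replicate 2 of 20 h had 1 run, and the second run of replicate 4 of 20 h gave 50239 counts. The noncoding transcript Gm42418 took 12.6% to 16.0% of the counts at 8 h and 19.9% to 26.2% at 20 h, and mitochondrial genes took 2.75% to 3.32% at 8 h and 1.78% to 2.03% at 20 h. The part of these shares in the results was not tested, except that the same 3 genes passed when Gm42418 and the transcript Gm26917 were left out. Replicate 3 of 20 h stood apart: 522 of 9146 genes were at least 2 times above, and 620 at or below 1/2 of, the median of the other 3 libraries of 20 h, against 100 to 201 and 128 to 522 in those libraries. The 201 and the 522 belong to replicate 4 of 20 h, which also had the smallest total and the largest share of Gm42418. Replicates 1 and 2 of 20 h correlated across 9169 genes more closely with the 8 h libraries (median r 0.967 and 0.961) than with their own group (0.938 and 0.946), and replicate 3 did so by less (0.914 against 0.910). Fibroblast markers summed to 35490 to 37120 CPM at 8 h and 25560 to 33270 CPM at 20 h, with 0 of 10 at 0. Of the markers of other tissues, Krt1 and Krt5 of keratinocytes, Emcn and Tek of endothelium, Cd3e of T cells, Adipoq, Lep and Plin1 of fat, Col9a1 of cartilage, and Ckm, Myod1 and Myog of muscle were at 0 in all 7 libraries. The markers of other tissues that were not at 0 summed to 131 to 169 CPM at 8 h and 80.3 to 177 CPM at 20 h for endothelium, 423 to 473 CPM and 378.5 to 610.3 CPM for cartilage, 16.9 to 17.8 CPM and 18.6 to 27.7 CPM for leukocytes, and under 9 CPM for keratinocytes, fat and muscle. The study calls its replicates biological, and the labels do not say which libraries came from separate cultures, so p-values measure the spread between these libraries.

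The circadian clock is a feedback loop of transcription. ARNTL (BMAL1) and CLOCK bind E-boxes and switch on the Per and Cry genes, whose proteins shut the pair off again, and a second loop runs through the nuclear receptors REV-ERBα and REV-ERBβ, the products of Nr1d1 and Nr1d2, which repress Arntl and Nfil3. DBP, TEF and HLF carry the rhythm to other genes through D-boxes, where NFIL3 opposes them. In fibroblasts this loop runs in each cell, and a bulk measurement sees it as far as the cells run in step.

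Dbp rose between 8 h and 20 h, and Spon2 and Timp1 fell. Of 13292 genes with at least 1 CPM in 3 libraries, these 3 passed edgeR's quasi-likelihood test at an adjusted p of 0.05, which is 0.0226% of the genes tested, 0.00752% higher and 0.015% lower. None of the 3 was called with a filter of 1 CPM in 3 of the 7 libraries or with all 21 HL libraries in the fit, and Timp1 alone was with all 62 libraries. With the libraries that the read summary names HL at 8 h and 20 h, Dbp was called in the opposite direction (log2 -2.91, edgeR adjusted p = 0.000333) and Spon2 and Timp1 were not called. Without adjustment 560 genes were higher (4.21%) and 410 lower (3.08%) at p under 0.05, together 7.3%. Of the genes at p under 0.05, 57.7% were thus higher, and 22.8% were with libraries scaled by their totals alone. The libraries of both groups did not overlap in 501 genes that were higher (3.77%) and 687 that were lower (5.17%) at 20 h. DESeq2 called 33 genes, 0.395% of the 8357 for which it gives an adjusted p. Across all genes the median log2 fold change was 0.01, and it was -0.14 when libraries were scaled by their totals alone. Levels are counts scaled to a fixed library size with trimmed-mean (TMM) factors, written CPM, and fold changes are 20 h over 8 h with the standard error (SE) of the fit. As RNA came from whole cultures, a change in the share of cells that express a gene and a change in RNA per cell cannot be told apart.

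**Figure D1:**
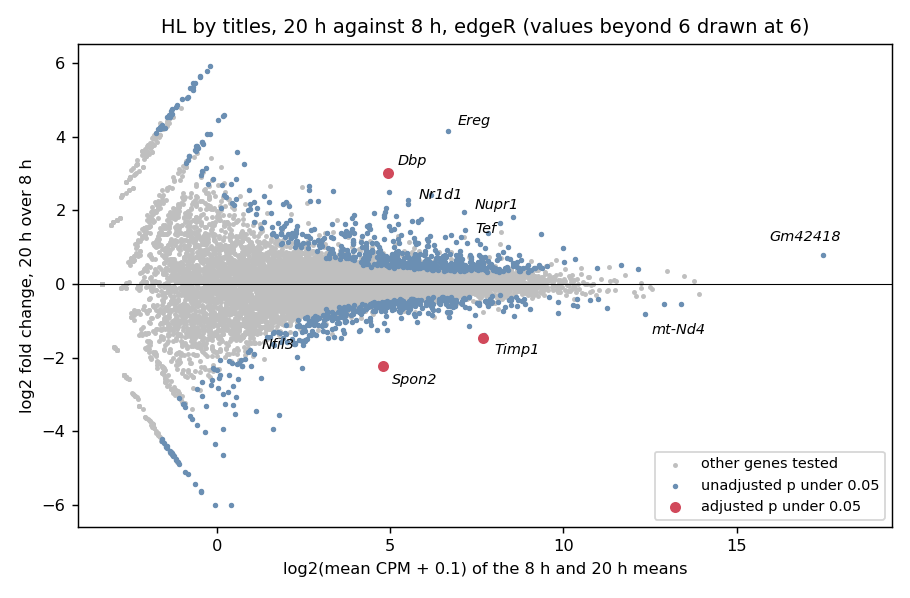
Log2 fold change of 20 h over 8 h (y axis) against log2 of the mean CPM plus 0.1 (x axis) for the 13292 genes tested, with genes of unadjusted p under 0.05 in blue and the 3 genes of adjusted p under 0.05 in red. Dbp stands at 3.02, Spon2 at -2.22 and Timp1 at -1.47, and the large fold of Ereg comes from 1 library.

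Dbp encodes a PAR bZIP activator that acts through D-boxes and is itself driven by ARNTL and CLOCK. Its level at 8 h was 7.47, 5.37 and 7.42 CPM in replicates 1, 2 and 4. At 20 h it was 69.6, 91.7, 37.6 and 20.8 CPM in replicates 1 to 4. The lowest library of 20 h lay above the highest of 8 h, and the 20 h libraries differed among themselves more than 4 to 1. The log2 fold change was 3.02 (SE 0.43, edgeR adjusted p = 0.0321), an 8.14-fold difference. The means were 6.75 ± 1.2 CPM (SD, n = 3) and 54.9 ± 31.8 CPM (SD, n = 4). Dbp lies at chr7:45705088-45710203 (GRCm38, plus strand) and overlaps Sphk2, and since the strand setting of the counting is not given in the sources used here, reads of the overlap cannot be assigned. The Dbp call was lost when replicate 1, 2 or 4 of 8 h or replicate 1 or 2 of 20 h was left out (adjusted p = 0.311, 0.315, 0.228, 0.17 and 0.125), and the fold change stayed between 2.67 and 3.28 in these and the other leave-one-out fits. Without replicate 3 of 20 h it was 3.16 (adjusted p = 4.59e-05).

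Tef, a factor of the same family, was at 82.5, 56.5 and 93.1 CPM at 8 h and at 221, 200.4, 148 and 182 CPM at 20 h. The groups did not overlap, but the log2 fold change of 1.29 (SE 0.20) missed the threshold (edgeR adjusted p = 0.0686), while DESeq2 called it (adjusted p = 6.76e-06). Hlf, the third member, was at 24.9, 55.0 and 27.2 CPM and then at 70.0, 66.9, 82.6 and 84.7 CPM, again with no overlap. Its log2 fold change was 1.11 (SE 0.26, edgeR adjusted p = 0.46, DESeq2 adjusted p = 0.0355). Nfil3, the repressor at the same D-boxes, had the opposite sign, from 11.3, 10.5 and 13.4 CPM to 4.36, 2.88, 5.52 and 6.49 CPM. All 4 libraries of 20 h lay below all 3 of 8 h, with a log2 fold change of -1.28 (SE 0.36, edgeR adjusted p = 0.527). Of these 4 output factors 1 passed the test, the unadjusted p was under 0.05 for 3 higher and 1 lower, and the median log2 fold change was 1.2.

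The 10 genes of the clock repressor list all had positive fold changes with a median of 1.23, none passed the adjusted edgeR test, and 7 had an unadjusted p under 0.05, against 4.21% of all genes in that direction. Nr1d2, encoding REV-ERBβ, was at 21.9, 12.9 and 44.3 CPM at 8 h and at 102, 86.8, 80.3 and 68.0 CPM at 20 h, with no overlap. Its log2 fold change was 1.69 (SE 0.33, edgeR adjusted p = 0.227, DESeq2 adjusted p = 0.000622). Nr1d1, encoding REV-ERBα, was at 20.6, 12.0 and 36.9 CPM and then at 100.2, 88.5, 86.3 and 26.3 CPM. Replicate 4 of 20 h lay within the range of 8 h for Nr1d1, and the log2 fold change of 1.71 (SE 0.42) was not called by edgeR (adjusted p = 0.46) and was called by DESeq2 (adjusted p = 0.0245). In both receptor genes replicate 4 was the highest library of 8 h and the lowest of 20 h, and it is the replicate that the read summary sets 4 h later than the others in each group. Nr1d1 overlaps Thra on the opposite strand at its 3′ end, where 3′DGE reads fall.

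Bhlhe41, which encodes the E-box repressor DEC2, was at 8.96, 5.58 and 9.01 CPM at 8 h and at 27.1, 25.1, 10.2 and 16.7 CPM at 20 h, with a log2 fold change of 1.34 (SE 0.36, edgeR adjusted p = 0.527). Its relative Bhlhe40 went from between 2.296 and 6.97 CPM to between 7.17 and 14.3 CPM. Ciart, encoding the repressor CHRONO, had 0, 3 and 0 counts at 8 h and 13, 14, 14 and 4 counts at 20 h. Libraries of both groups were apart in all 3 of these genes, though Ciart rests on few reads. Among the Per genes, Per3 was at 4.48, 3.43 and 6.71 CPM and then at 13.9, 25.9, 2.25 and 9.56 CPM, and replicate 3 of 20 h was below every library of 8 h. Per2, whose fusion with luciferase is the reporter of the line, was at 1.82, 2.36 and 4.24 CPM and then at 10.5, 7.21, 1.02 and 5.46 CPM, likewise with replicate 3 lowest. It rests on 11, 11 and 24 counts and then 65, 25, 5 and 16. Whether 3′ reads of the fusion transcript were counted under Per2 was not tested. Per1 lay between 5.31 and 8.16 CPM and then between 5.46 and 13.3 CPM, and Cry1 between 9.89 and 22.5 CPM and then between 10.4 and 36.6 CPM, with overlap in both. Cry2 was at 8.79, 7.51 and 7.07 CPM and then at 8.73, 13.3, 18.0 and 23.6 CPM, with a log2 fold change of 1.02 (SE 0.35, edgeR adjusted p = 0.641).

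Promoter sequence was examined for these clock genes because most of them shared the sign of their fold change. In the 250 bases before the RefSeq start (GRCm38.p6), the E-box CACGTG, which reads the same on both strands, was found in 5 of the 12 repressor and output genes with an entry, namely Per1, Cry1, Ciart, Bhlhe41 and Tef, where Per1 holds it at 1 of its listed starts. Of 32817 such windows genome-wide 6.02% hold it, and 8.09% of those of tested genes. The D-box TTATGTAA or TTACGTAA, on either strand, was found in Per3 alone among the 12, against 0.929% of windows and 0.623% of those of tested genes. The half-site AGGTCA is bound by receptors of the REV-ERB and ROR kind and was searched on both strands. Nfil3, Nr1d2 and Per1, the last at 1 of its listed starts, held it, against 14.0% of windows and 10.6% of those of tested genes. These shares count windows, and a gene can have more than 1. The windows of Dbp and Nr1d1 hold none of these letters. A match is a string in this window and does not show binding. The following stretches, written 5′ to 3′ on the strand of the gene with motif letters in capitals, lie at chr15:81802531-81802560 (Tef, plus strand), chr6:145865559-145865605 (Bhlhe41, minus strand), chr3:95882252-95882368 (Ciart, minus strand) and chr4:151044796-151044895 (Per3, minus strand).
Tef: ttggtgctgtggctcCACGTGctgcagctg
Bhlhe41: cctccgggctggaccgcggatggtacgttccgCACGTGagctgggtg
Ciart: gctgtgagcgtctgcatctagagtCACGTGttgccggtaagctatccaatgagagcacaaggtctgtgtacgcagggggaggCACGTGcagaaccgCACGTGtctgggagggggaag
Per3: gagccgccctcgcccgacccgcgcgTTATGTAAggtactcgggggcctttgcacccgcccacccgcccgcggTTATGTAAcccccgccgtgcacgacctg
Ciart holds 3 E-boxes within 140 bases of its start and Per3 holds 2 D-boxes of the same letters, while Tef and Bhlhe41 show 1 E-box each.

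The positive limb of the clock gave no call. Arntl, encoding the partner of CLOCK, was at 9.46, 4.72 and 7.596 CPM at 8 h and at 1.45, 0.577, 6.54 and 3.76 CPM at 20 h. Its groups overlapped through replicate 3 of 20 h, and the log2 fold change was -1.21 (SE 0.61, edgeR adjusted p = 0.699). Clock was at 68.5, 71.7 and 73.8 CPM and then at 56.9, 68.0, 61.7 and 59.4 CPM, a log2 fold change of -0.20 (SE 0.16) although the groups were apart. Rora, encoding a receptor that opposes REV-ERB at its sites, was at 143, 173 and 136 CPM and then at 163, 177, 472 and 178 CPM, with replicate 3 of 20 h far above the rest. Npas2, a stand-in for CLOCK, had 5, 3 and 2 counts and then 0, 0, 15 and 1. The 7 activators had a median log2 fold change of -0.20, which is the value of Clock, and it was -0.48 without replicate 3 of 20 h and 0.42 with the names of the read summary. Of 8 tested genes for kinases, ubiquitin ligases and a deubiquitinase that act on clock proteins, the median was 0.07, or 0.03 without that replicate. Among them the deubiquitinase gene Usp2 went from 5.64, 3.22 and 11.1 CPM to 1.62, 3.46, 2.86 and 2.39 CPM with a log2 fold change of -1.37 (SE 0.52, edgeR adjusted p = 0.656).

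**Figure D2:**
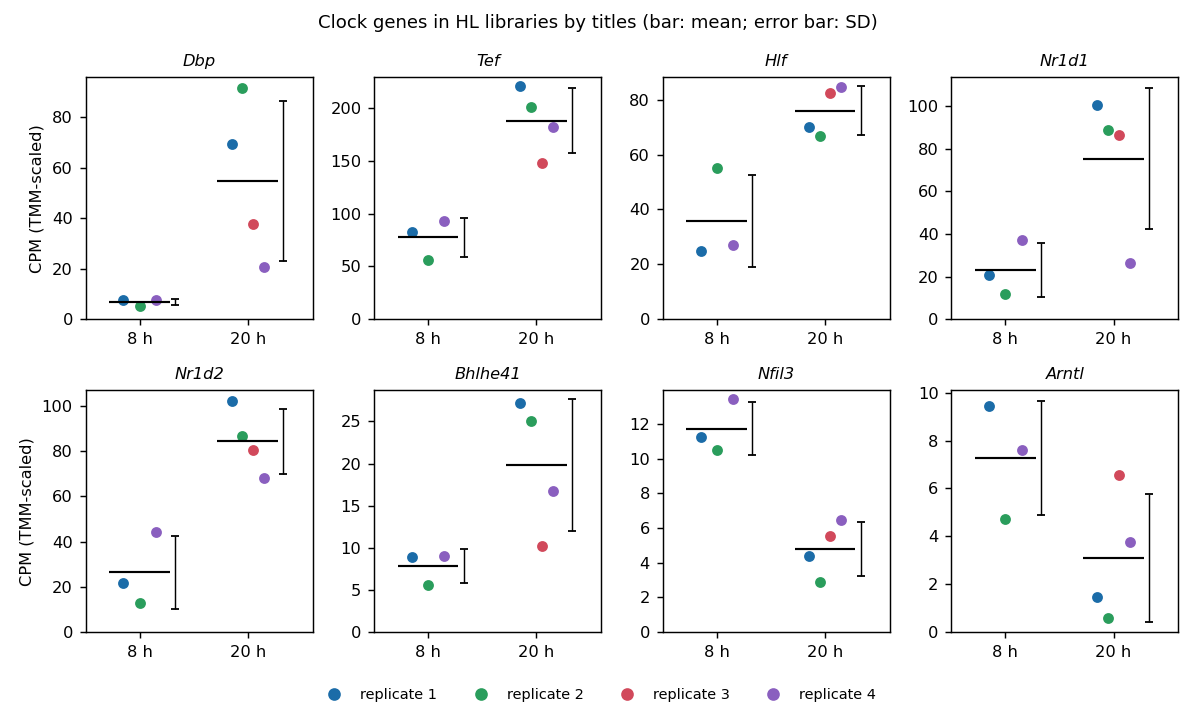
Levels in CPM (y axis, from 0) of 8 clock genes in the 3 libraries of 8 h and the 4 of 20 h by titles, 1 point a library coloured by replicate, with the mean as a bar and the SD as an error bar. The groups do not overlap for Dbp, Tef, Hlf, Nr1d2, Bhlhe41 and Nfil3, and overlap for Nr1d1 and Arntl.

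Spon2 encodes spondin 2, a secreted matrix protein. It was at 58.9, 44.6 and 33.9 CPM at 8 h and at 7.92, 6.34, 12.1 and 13.0 CPM at 20 h. The means were 45.8 ± 12.5 CPM (SD, n = 3) and 9.82 ± 3.20 CPM (SD, n = 4). The log2 fold change was -2.22 (SE 0.29, edgeR adjusted p = 0.0321), a 4.65-fold difference. Every library of 20 h was below every library of 8 h. The Spon2 call was lost without replicate 1 or 2 of 8 h or replicate 1 or 2 of 20 h (adjusted p = 0.311, 0.141, 0.17 and 0.125). Spon2 lies at chr5:33198184-33218455 on the minus strand.

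Timp1 encodes a secreted inhibitor of matrix metalloproteinases. It was at 347, 369.6 and 196 CPM at 8 h and at 98.4, 107, 118 and 113 CPM at 20 h. The 20 h libraries were close together, while replicate 4 of 8 h lay between them and the other 8 h libraries. The log2 fold change was -1.47 (SE 0.20, edgeR adjusted p = 0.0321), a 2.77-fold difference. The Timp1 call was lost without replicate 1 or 2 of 8 h or replicate 1, 2 or 4 of 20 h (adjusted p = 0.311, 0.315, 0.17, 0.15 and 0.0698). Timp1 lies at chrX:20870166-20874735 on the plus strand and overlaps Syn1. Timp3, an inhibitor that binds to the matrix, was at 2636, 2536 and 2987 CPM and then at 4110, 4667, 2252 and 4283 CPM, higher in 3 of 4 libraries of 20 h and lowest in replicate 3 (log2 0.50, SE 0.21).

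Collagens, the fibres that fibroblasts secrete, gave no call, and 16 of 19 had negative fold changes with a median log2 of -0.41. Of them 6 were lower and 1 higher at an unadjusted p under 0.05, against 3.08% and 4.21% of all genes. Col1a1, the main chain of collagen I, was at 9365, 9004 and 8961 CPM and then at 7115, 6942, 4736 and 5836 CPM, with no overlap and a log2 fold change of -0.55 (SE 0.15). The basement membrane chains Col4a1 and Col4a2, neighbours that share a promoter region, had log2 fold changes of -0.85 (SE 0.21) and -0.75 (SE 0.21). For Col4a1 the levels were 203, 218.5 and 255.8 CPM and then 136, 166, 82.0 and 114 CPM. In Col1a1 and Col4a1 replicate 3 was the lowest library of 20 h, and the collagen median was -0.25 without it. With the names of the read summary the medians of the collagens and of the matrix glycoproteins were 0.12 and 0.17.

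Of 32 matrix glycoproteins and crosslinking enzymes 1 passed the test, Spon2, and 6 lower and 1 higher had an unadjusted p under 0.05, against 3.08% and 4.21% of all genes. Mgp, encoding matrix Gla protein, an inhibitor of calcification, was at 365, 294 and 258.4 CPM and then at 150.4, 136, 113 and 61.1 CPM. These groups were apart, with a log2 fold change of -1.39 (SE 0.25, edgeR adjusted p = 0.141, DESeq2 adjusted p = 0.000393). Lox, the lysyl oxidase that crosslinks collagen, was at 1462, 1637 and 1377 CPM and then at 1062, 912, 1164 and 886 CPM, also apart (log2 -0.56, SE 0.15). Adamts4, a protease of proteoglycans, had a log2 fold change of -1.02 (SE 0.29) without overlap.

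Genes of DNA replication were lower at 20 h in sign but none passed the adjusted edgeR test. Of 28 tested, 26 had negative fold changes, 11 had an unadjusted p under 0.05 and were lower, against 3.08% of all genes, and the median log2 was -0.65. Ccne2, encoding cyclin E2 of the entry into S phase, was at 15.6, 17.6 and 11.7 CPM and then at 4.20, 7.21, 5.31 and 5.46 CPM. Tk1, the thymidine kinase of S phase, was at 12.4, 13.1 and 15.0 CPM and then at 4.85, 3.75, 7.77 and 2.73 CPM. Libraries were apart in both, with log2 fold changes of -1.43 (SE 0.32, edgeR adjusted p = 0.46) and -1.45 (SE 0.37, edgeR adjusted p = 0.48), and DESeq2 called Ccne2 (adjusted p = 0.0355). Pclaf, which binds the replication clamp PCNA, was at 40.3, 45.1 and 40.3 CPM and then at 21.8, 19.6, 11.2 and 17.1 CPM (log2 -1.25, SE 0.24, edgeR adjusted p = 0.227). Mcm2, a subunit of the replicative helicase, had a log2 fold change of -0.98 (SE 0.29).

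Genes of mitosis had the same sign in 32 of 34, a median log2 of -0.53, and 6 that were lower at an unadjusted p under 0.05, against 3.08% of all genes, of which 6484 of 13292 had negative fold changes. Top2a, the topoisomerase that untangles chromosomes, was at 120.5, 149 and 139 CPM and then at 109, 90.8, 77.1 and 72.1 CPM, apart in its groups. Cdca8 of the chromosomal passenger complex and the spindle checkpoint kinase Ttk had log2 fold changes of -0.93 (SE 0.30) and -1.14 (SE 0.38). Wee1, the kinase that holds back entry into mitosis and a known E-box target of the clock, had the opposite sign, at 10.4, 13.9 and 9.01 CPM and then at 17.9, 28.8, 22.1 and 28.4 CPM. Its groups were apart and its log2 fold change was 1.13 (SE 0.28, edgeR adjusted p = 0.46, DESeq2 adjusted p = 0.0466). Cdkn1a, encoding the inhibitor p21, was at 61.2, 72.3 and 41.5 CPM and then at 32.0, 29.1, 53.1 and 31.1 CPM, with replicate 3 of 20 h above the other 3. Medians of replication and mitosis genes without that replicate were -0.54 and -0.48, and with the names of the read summary they were -0.24 and -1.515.

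**Figure D3:**
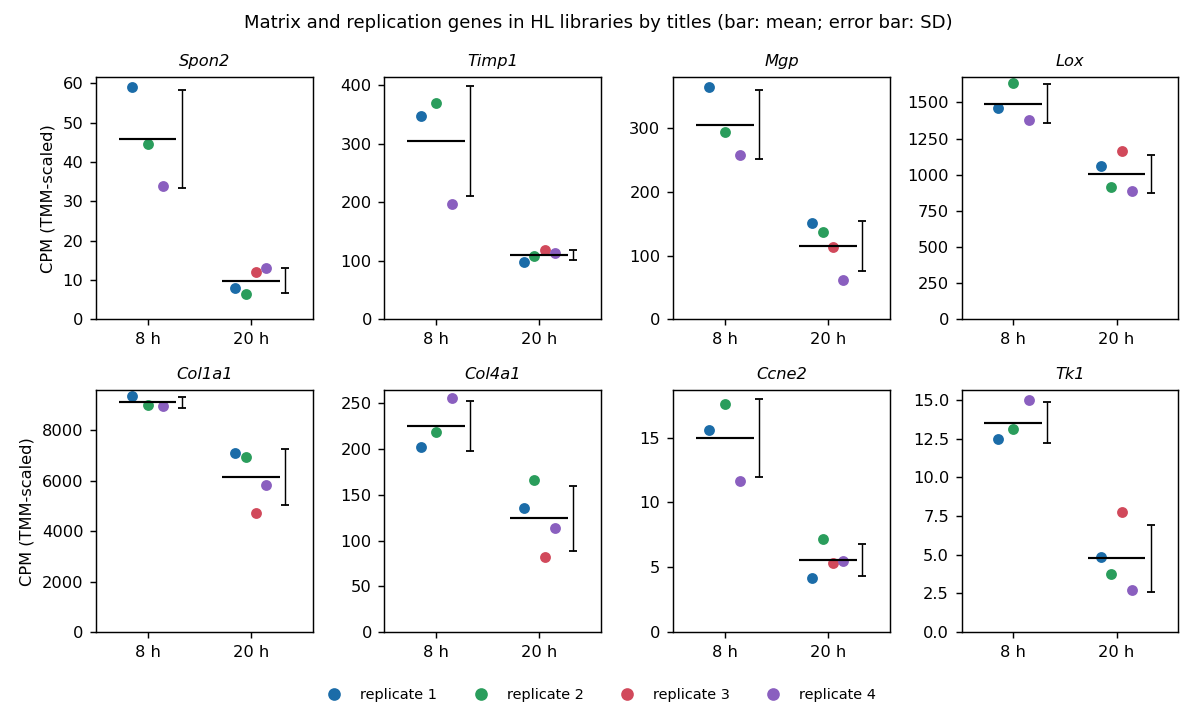
Levels in CPM (y axis, from 0) of 6 matrix genes and of the replication genes Ccne2 and Tk1 in the libraries of 8 h and 20 h by titles, with the mean as a bar and the SD as an error bar. All 4 libraries of 20 h lie below all 3 of 8 h in each of the 8 genes, and Spon2 and Timp1 passed the adjusted test.

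Immediate early genes, which growth factors and serum switch on within minutes, had positive fold changes in 16 of 22, with a median log2 of 0.46, 6 higher and 1 lower at an unadjusted p under 0.05, against 4.21% and 3.08% of all genes. The median was 0.27 without replicate 3 of 20 h and 0.08 with the names of the read summary. Egr1 was at 12.4, 13.7 and 25.8 CPM and then at 53.5, 49.9, 47.0 and 38.3 CPM, and its relative Egr3 at 3.15, 3.65 and 7.77 CPM and then at 15.5, 13.8, 16.8 and 13.7 CPM. In both, replicate 4 was the highest library of 8 h and the lowest of 20 h, and the groups were apart. Log2 fold changes were 1.46 (SE 0.27, edgeR adjusted p = 0.187) for Egr1 and 1.63 (SE 0.36, edgeR adjusted p = 0.46) for Egr3, and DESeq2 called both (adjusted p = 0.000495 and 0.0152). Fos, a subunit of AP-1, was at 0.429 to 1.41 CPM and then at 2.88 to 7.15 CPM.

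The contractile genes Tagln and Acta2 had negative fold changes. Tagln, encoding the actin-binding protein transgelin, was at 223.4, 276.5 and 134 CPM and then at 108, 102, 50.3 and 123 CPM, a log2 fold change of -1.13 (SE 0.28, edgeR adjusted p = 0.46). Acta2, the smooth muscle actin of myofibroblasts, was at 546, 644 and 306 CPM and then at 384, 305, 145 and 244.6 CPM, with overlap. Actg1, the cytoplasmic γ-actin, had the opposite sign, at 45.0, 47.2 and 32.1 CPM and then at 88.1, 135, 30.9 and 120.2 CPM, where replicate 3 of 20 h lay below every library of 8 h. The 19 tested targets of SRF and YAP had a median log2 of -0.17, with 3 lower and 1 higher at an unadjusted p under 0.05, against 3.08% and 4.21% of all genes. That median was -0.02 without replicate 3 of 20 h and 0.16 with the names of the read summary. Tuba1b, an α-tubulin, was at 384.5, 368.5 and 392 CPM and then at 280.5, 218.5, 213 and 196 CPM (log2 -0.74, SE 0.16, edgeR adjusted p = 0.343, DESeq2 adjusted p = 0.00635), and Myl6, a myosin light chain, had a log2 fold change of -0.65 (SE 0.16).

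The growth factor genes Tgfb2 and Igf1 were apart in their groups and not called by edgeR. Tgfb2, encoding a TGF-β ligand, was at 196, 238.5 and 244.5 CPM and then at 333, 425, 608 and 433 CPM (log2 1.0, SE 0.20, edgeR adjusted p = 0.256, DESeq2 adjusted p = 0.00258). Igf1 was at 186.5, 251.3 and 179.8 CPM and then at 299, 304, 462 and 339 CPM (log2 0.78, SE 0.20). In both, replicate 3 was the highest library of 20 h, and the other 3 were still above all libraries of 8 h. Mxi1, an antagonist of MYC counted among the hypoxia targets, was at 18.6, 30.9 and 19.8 CPM and then at 44.8, 38.6, 47.4 and 51.6 CPM (log2 1.0, SE 0.23, edgeR adjusted p = 0.46, DESeq2 adjusted p = 0.0316). The lists themselves had medians of 0.20 for 17 genes of the TGF-β pathway, 0.16 for 11 of the IGF system and 0.11 for 15 hypoxia targets, with 0 calls by edgeR in each and 1 by DESeq2 in the first and the last, Tgfb2 and Mxi1. Without replicate 3 of 20 h these medians were 0.09, -0.04 and 0.19. In the lysosome, the calcium channel gene Mcoln1 was at 21.1, 26.8 and 24.7 CPM and then at 33.8, 45.3, 33.7 and 47.8 CPM (log2 0.74, SE 0.22). It is not a member of the list of 19 lysosome and autophagy genes, whose median was 0.13, or 0.07 without replicate 3.

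The medians of the interferon and chemokine lists were near 0 without replicate 3 of 20 h. Interferon and MHC class I genes had 8 of 17 higher at an unadjusted p under 0.05, against 4.21% of all genes, and a median log2 of 0.53, which was -0.05 without this library. Ifit1, an interferon-induced antiviral gene, was at 14.9, 25.97 and 9.72 CPM and then at 17.4, 25.7, 208 and 48.5 CPM, and its log2 fold change of 2.18 was 0.84 without that library. Chemokine and NF-κB targets had a median of 0.62 in 15 genes, and -0.05 without it. Cxcl1, a neutrophil attractant, was at 4.15, 3.86 and 1.06 CPM and then at 2.10, 3.75, 59.3 and 3.07 CPM, and Ptgs2, encoding cyclooxygenase 2, was at 5.58 to 9.01 CPM and then at 9.86, 4.32, 77.1 and 4.78 CPM. Without replicate 3 the log2 fold changes of Cxcl1 and Ptgs2 were -0.04 and -0.05, against 2.53 and 1.86 with it. The epidermal growth factor ligand Ereg, named after its values were seen, was at 8.96, 12.9 and 10.9 CPM and then at 11.0, 9.22, 743 and 9.22 CPM.

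Single heat shock genes were also highest in that library. Hsph1, a cofactor of HSP70, was at 110.5, 193 and 116 CPM and then at 147, 141, 1253 and 197 CPM, and the list of 18 had a median log2 of 0.14, or 0.08 without replicate 3. Nupr1, a stress-induced chromatin protein, was at 43.3, 76.6 and 54.2 CPM and then at 39.9, 34.9, 714 and 94.6 CPM, with a log2 fold change of 1.95 (SE 0.83) and of -0.06 without that library. Hif1a, the oxygen-regulated factor, was at 165, 185.1, 809 and 146 CPM at 20 h, above the 113 to 139 CPM of 8 h in all 4 libraries. ATF4 targets, which respond to amino acid shortage, had a median of 0.01, and -0.32 without replicate 3.

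The lists of metabolism, stress and protein synthesis that remain gave 0 calls. Medians were 0.06 for 14 genes of the glucose and FOXO response, 0.02 for 20 of glycolysis, 0.08 for 30 of sterol and fatty acid synthesis, -0.04 for 17 chaperones of the endoplasmic reticulum, -0.02 for 17 NRF2 targets, 0.23 for 10 glucocorticoid targets, 0.21 for 3 cold-inducible RNA-binding proteins, -0.09 for 25 nuclear subunits of the respiratory chain and -0.12 for 29 ribosomal proteins. Without replicate 3 of 20 h the medians of glycolysis, the respiratory chain and ribosomal proteins were -0.20, -0.21 and -0.23, against -0.01 for all genes, and those of the glucose and FOXO response, sterol and fatty acid synthesis and NRF2 targets were 0.12, 0.04 and -0.04. At an unadjusted p under 0.05 each of these lists held at most 2 members on a side. Fdft1, the squalene synthase, was at 48.3, 58.4 and 43.1 CPM and then at 31.7, 32.9, 27.0 and 33.1 CPM (log2 -0.67, SE 0.20). Arrdc4, an arrestin-family gene switched on by the glucose sensor MondoA, was at 0.353 to 1.503 CPM and then at 3.07, 5.48, 0.204 and 3.76 CPM, too low for a firm statement. Of 12 mitochondrial DNA genes 3 were lower at an unadjusted p under 0.05, against 3.08% of all genes, 7 had negative and 5 positive fold changes, and the median log2 was -0.08. Among them mt-Nd4, a subunit of complex I, was at 6944, 6559 and 6582 CPM and then at 4069, 3259, 3556 and 4101 CPM (log2 -0.83, SE 0.14, edgeR adjusted p = 0.0962, DESeq2 adjusted p = 1.79e-05).

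**Figure D4:**
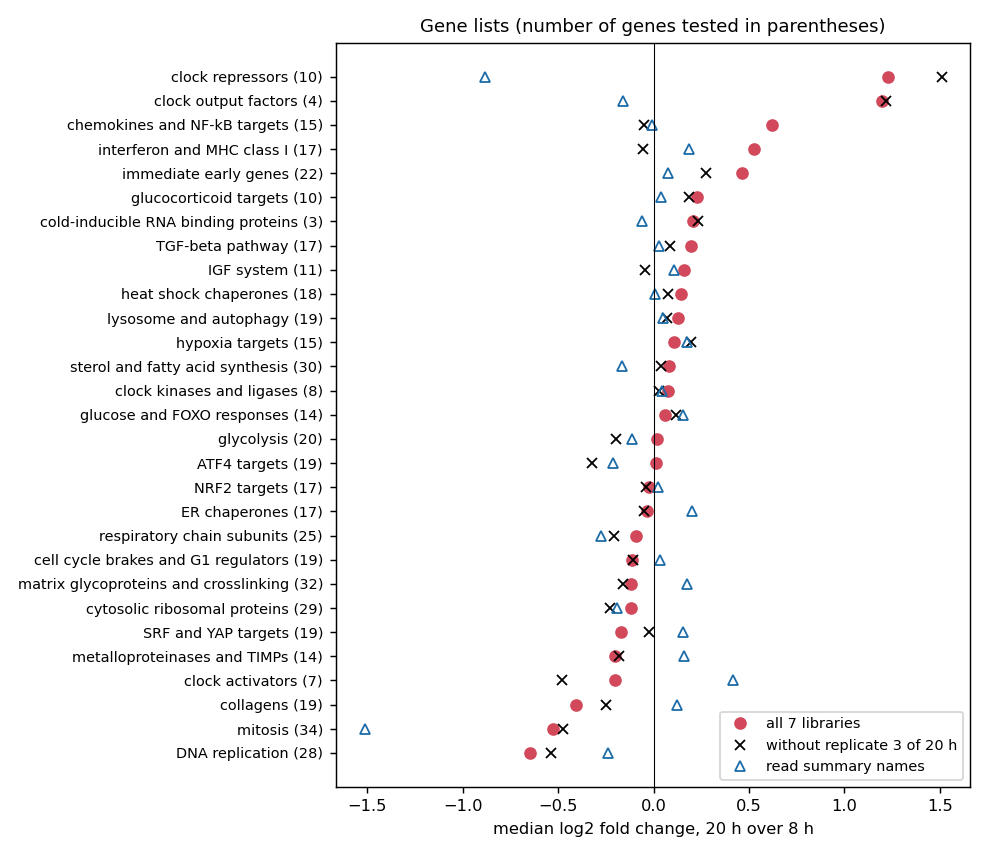
Median log2 fold change of 20 h over 8 h (x axis) for the 29 gene lists, by titles with all 7 libraries (filled), without replicate 3 of 20 h (crosses) and with the libraries named HL at 8 h and 20 h in the read summary (triangles). Clock repressors are at 1.23 by titles and -0.88 by the read summary, and the interferon and chemokine lists are near 0 without replicate 3.

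HH, whose libraries at these hours carry the same names in both sources, served as the reference without a low phase. The 20 h over 8 h difference of HL by titles differed from that of HH in 5 genes, 0.0376% of those tested, and 5.91% had an unadjusted p under 0.05. All 5 belong to the clock. The HL difference exceeded the HH difference by log2 5.44 (SE 0.66) for Nr1d1, 4.66 (SE 0.57) for Dbp, 1.79 (SE 0.28) for Tef, 2.74 (SE 0.43) for Nr1d2 and 2.87 (SE 0.48) for Bhlhe41, with edgeR adjusted p of 0.000602 for the first pair, 0.0101 for Tef and Nr1d2, and 0.0205 for Bhlhe41. In HH, Nr1d1 was at 140.6 to 157 CPM at 8 h (n = 3) and at 3.46 to 17.4 CPM at 20 h (n = 4), and fell by 3.74 on the log2 scale (SE 0.41, edgeR adjusted p = 0.00438), the sole call in HH alone (0.00752%). Dbp in HH was at 30.0 to 56.9 CPM at 8 h and at 9.37 to 20.3 CPM at 20 h (log2 -1.65, SE 0.31, edgeR adjusted p = 0.39). So both genes were low at 8 h and high at 20 h in HL by titles and had the opposite order in HH. Leaving out replicate 1 of 8 h left 2 of the calls, Dbp and Nr1d1, leaving out replicate 2 of 8 h left 3, with Nr1d2, and Bhlhe41 was lost without replicate 4 of 8 h or replicate 1 or 2 of 20 h.

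The level over all collections put this pair of hours in context. By titles, the mean of Dbp in HL was 3.49, 4.68, 6.75, 28.0, 42.5 and 54.9 CPM from 0 h to 20 h, and in HH it was 4.99, 4.62, 44.9, 57.0, 34.8 and 14.4 CPM. Dbp was thus highest at the last collection of HL and at 12 h of HH. Nr1d1 was highest at 16 h in HL, at 96.6 ± 50.1 CPM (SD, n = 3), and at 8 h in HH, at 148 ± 8.10 CPM (SD, n = 3). Neighbouring means of HL at 12 h, 16 h and 20 h lay within 1 SD of each other for both genes. Spon2, in contrast, was lower at 20 h than at 8 h in both protocols, at 25.4 ± 1.90 and 13.1 ± 5.86 CPM in HH, and the difference between the protocols was not called for it (log2 -1.26, SE 0.49, edgeR adjusted p = 0.819). Timp1 in HH was at 130.2 ± 8.55 and 141.7 ± 40.2 CPM.

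**Figure D5:**
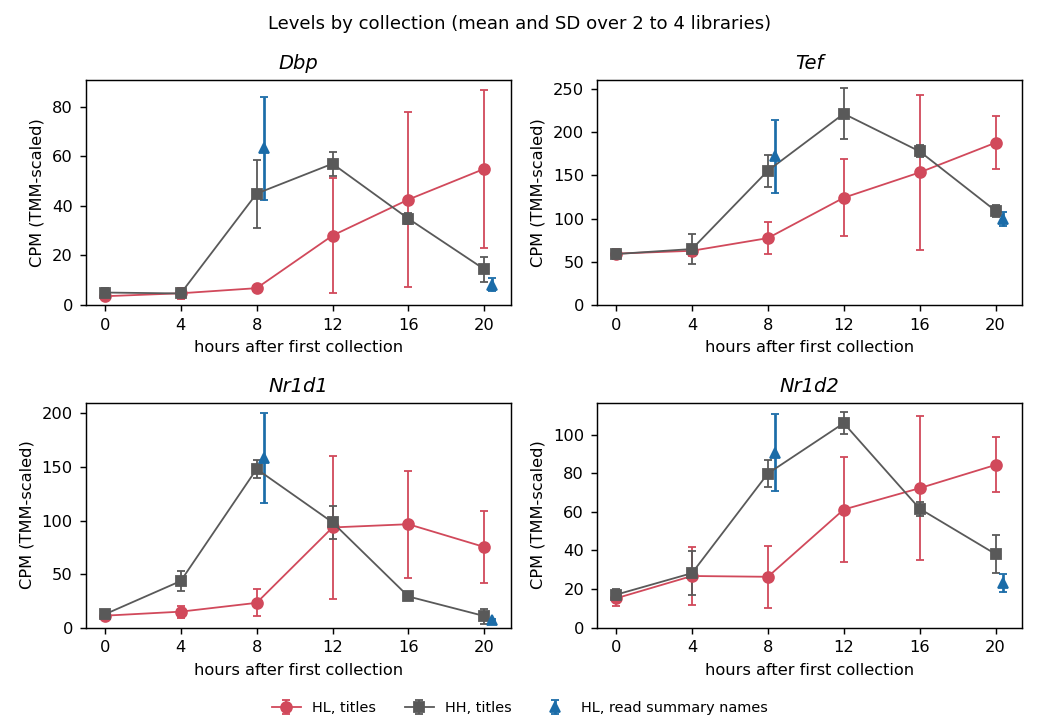
Mean level in CPM with SD (y axis, from 0) of Dbp, Tef, Nr1d1 and Nr1d2 by hours after the first collection (x axis) in HL (circles) and HH (squares) by titles, and in the libraries that the read summary names HL at 8 h and 20 h (triangles, drawn slightly to the right). HL by titles is low at 8 h and high at 20 h, and HH and the triangles have the opposite order.

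No gene passed for the difference between HL and LH by titles in edgeR, while 788 (5.93%) had an unadjusted p under 0.05 and DESeq2 called 6. For Nr1d1 that difference was log2 4.15 (SE 0.78, edgeR adjusted p = 0.132). LH alone had 41 calls (0.308%), among them Nr1d1, which fell by 2.46 on the log2 scale (SE 0.47, edgeR adjusted p = 0.0278), and Spon2, which fell by 2.32 (SE 0.28, edgeR adjusted p = 0.00138). The titles give LH the clock hour 16 at both of these collections, so its 8 h and 20 h rest on the collection field alone. The names of LH libraries also differ between the sources.

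With the 3 libraries that the read summary names HL at 8 h and the 3 it names HL at 20 h, which are other libraries, Dbp, Tef, Nfil3, Arntl, the Per genes, Nr1d1, Nr1d2, Ciart, Bhlhe40 and Bhlhe41 took the opposite sign. Dbp was at 39.3 to 75.3 CPM at 8 h and at 5.17 to 9.78 CPM at 20 h, a log2 fold change of -2.91 (edgeR adjusted p = 0.000333). Nr1d1 was at 120.4 to 203 CPM and then at 5.69 to 7.57 CPM (log2 -4.49, edgeR adjusted p = 1.007e-07), and Nr1d2 (log2 -1.97, edgeR adjusted p = 0.000672) and Bhlhe41 (log2 -2.11, edgeR adjusted p = 0.00692) fell as well. Cry1 kept its positive sign and was called there (log2 1.72, edgeR adjusted p = 0.00794), and Cry2, Hlf, Rora and Arntl2 kept theirs without a call. In these libraries 6 genes were called, the 5 whose adjusted p is given here and the mitosis gene Cdc20, named after its values were seen, and 0 genes differed from HH, with 620 at an unadjusted p under 0.05. Of the medians of the 29 lists, 14 differed from those by titles by more than the median SE of the genes of the list. The medians of the clock repressors and of the clock output factors were -0.88 and -0.16 there. Spon2 and Timp1 kept a negative sign, at -1.11 and -0.39, and were not called. Libraries titled LH are among those that the read summary names HL. At 20 h, for example, the highest Spon2 level was 15.24 CPM in both sets and the lowest Nr1d1 level 5.685 CPM. The values of this paragraph and those of LH by titles thus share libraries. The direction of Dbp, Nr1d1, Nr1d2 and Bhlhe41 between 8 h and 20 h of HL therefore turns with the source of the library names, and which source is right was not tested.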

How the data were processed

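Per the labels and the study's methods, RNA of the fibroblasts was sequenced by 3′DGE. The submitters' processing notes name bcl2fastq, STAR 2.6.0a, HTSeq 0.9.1 and mm10, and the authors deposited raw counts per gene, 1 set for each of 121 runs, without normalization. The strand setting is not given in the sources used here. Entries without a gene stayed out of totals (reads on no feature, 19.9% to 24.5%). Both runs of a library were summed and groups taken from titles.

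Genes with at least 1 CPM in 3 of 62 libraries were tested with edgeR 4.0.16 (TMM, quasi-likelihood, 7 libraries, Benjamini-Hochberg at 0.05), and differences between protocols as interactions. DESeq2 1.42.0 was an alternative. Levels are CPM scaled by TMM factors over 62 libraries. Symbols and positions come from GENCODE M21 and promoters from RefSeq. The tests were first run on artificial counts with known answers.

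Genes named are the 3 called, the 10 with the smallest p of at least 5 CPM, all members of 3 clock lists, the 3 smallest p of every other list, and the 5 smallest p of each difference between protocols. Not all have values printed, and 1 item is not reported here. The members and lists were chosen with earlier results of these data known. Alternatives without Gm42418 and Gm26917 and without both replicates 4 were chosen after seeing the data.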

Additional observations from a re-analysis of the deposited data

Results flagged for a closer look

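In HL at 20 h, 15 of 79 genes had 1 library far from the other 3, by the gap to its nearest neighbour as a share of the range, past Dixon's 95% value for 4 libraries, which chance passes in about 1 of 20 groups. In 13 of them replicate 3 was highest: Npas2 (0.889), Rora (0.953), Nupr1 (0.912), Cdkn1a (0.88), Hsph1 (0.949), Gclc (0.979), Hif1a (0.942), Sgk1 (0.975), Csf1 (0.926), Cxcl1 (0.971), Ptgs2 (0.924), Ifit1 (0.837) and Stc1 (0.988). Gadd45a (0.85), a growth arrest gene, was lowest in replicate 3, at 8.79 CPM against 14.4 to 15.4 CPM. Tfeb (0.941), the regulator of lysosome genes, was highest in replicate 4, at 24.6 CPM against 20.44 to 20.7 CPM. Stc1, a secreted glycoprotein, reached 267.6 CPM in replicate 3 against 22.5 to 25.5 CPM, Sgk1, a kinase downstream of insulin and glucocorticoids, 545 CPM against 89.7 to 101 CPM, Gclc of glutathione synthesis 173 CPM against 53.2 to 55.6 CPM, and Csf1 197 CPM against 66.9 to 76.5 CPM.

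The 20 h over 8 h difference of HL minus that of HH passed the interaction test of edgeR for Nr1d1 (5.44), Dbp (4.66), Tef (1.79), Nr1d2 (2.74) and Bhlhe41 (2.87), in log2 units by titles. With the library names of the read summary 0 genes passed, and 620 had an unadjusted p under 0.05.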

How the results depend on the processing

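Against 3 genes called (1 higher, 2 lower) for 20 h over 8 h, other settings gave 0 (0 and 0) with the filter of 1 CPM in 3 of the 7 libraries and with all 21 HL libraries in the fit, 1 (0 and 1) with all 62 libraries, 26 (18 and 8) without a filter, 33 (21 and 12) with DESeq2, and 6 (1 and 5) with the names of the read summary. Library totals alone gave 3 calls, 0 higher and 3 lower, in which Dbp was lost (adjusted p = 0.0659) and mt-Nd4 entered, while the first run alone (4 calls) and thinning to the smallest total (4 calls) gave 2 higher and the second run alone gave 2 higher and 1 lower. Without both replicates 4 there were 6 calls, 4 of them higher. Leaving out 1 library gave 0 to 32 calls, 0 to 19 higher and 0 to 13 lower, with 32 without replicate 3 of 20 h. The replicate block gave 179 calls (78 higher, 101 lower). Replicate 3 exists at 20 h but not at 8 h, so its block term takes this library out of the comparison. Same-numbered libraries of both groups correlated in their deviations at 0.0824, -0.149 and 0.0949. These values show no pairing by number, though so few pairs cannot exclude it. Against 5 genes that differed between HL and HH there were 11 with DESeq2, 8 with all 62 libraries, without Tef and Nr1d2, 0 by the read summary and 2 to 7 with 1 library left out, and 5 under the replicate block. For HL against LH there were 6 with DESeq2, 1 with all 62 libraries and 0 with 1 library left out. The causes of these changes were not tested.

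Among log2 fold changes of named genes, 39 changed sign by the read summary: Dbp -2.91, Tef -0.80, mt-Nd4 0.77, Mgp 0.37, Nr1d2 -1.97, Arntl 1.66, Clock 0.27, Rorb 1.39, Per1 -0.22, Per2 -0.52, Per3 -1.07, Ciart -2.62 (few reads), Nr1d1 -4.49, Bhlhe40 -0.69, Bhlhe41 -2.11, Nfil3 2.17, Usp2 0.58, Gapdh 0.26, Aldoc -1.99, Pdia6 0.21, Ccne2 0.23, Mcm2 0.059, Gadd45a 0.40, Col4a1 0.11, Col4a2 0.12, Adamts4 0.021, Tagln 0.16, Actg1 -0.46, Gclc -0.36, Pdk1 0.17, Hif1a -0.33, Sgk1 -0.51, Ptgs2 -0.63, Irf1 0.019, Id1 -0.14, Ltbp1 0.70, Myl6 0.46, Tuba1b 0.30 and Mcoln1 -0.24. By titles the sign turned without replicate 3 of 20 h and under the replicate block. As 8 h has no replicate 3, both fits take the same library out of the comparison. With 1 library left out the values ran from -2.49 to 0.97 for Npas2, -0.055 to 2.298 for Nupr1, -0.045 to 2.91 for Cxcl1, -0.051 to 2.19 for Ptgs2 and -0.14 to 2.01 for Stc1, the lowest of each without replicate 3 of 20 h. Under the block they were -2.53, -0.12, -0.028, -0.060 and -0.11, and Npas2 was -0.053 with the first run alone. The other values by titles kept their sign, 1457 on the same side of the threshold, 85 newly called and 24 no longer called. A gene that was not called with 3 against 4 libraries may still differ.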
